A study of Mus musculus with 15 samples.

Results

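The genes examined were 10 members of the NF-κB system: the 5 Rel subunits *Nfkb1*, *Nfkb2*, *Rel*, *Rela* and *Relb*, and the 5 inhibitors *Nfkbia*, *Nfkbib*, *Nfkbie*, *Nfkbiz* and *Tnfaip3*. They were taken by exact symbol from the 21110 genes of the expression files, and all 10 were found. RNA from the ear of C57BL/6 mice had been sequenced in 15 libraries: at the age of 2 weeks from 4 wild type mice (labelled WT, as here) and 4 with the conditional knockout (*Socs3* cKO), and at the age of 10 weeks from 3 and 4, respectively. In *Socs3* cKO the suppressor of cytokine signaling 3 gene is deleted under keratin 5 control, that is in keratinocytes of the basal epidermis and hair follicle, so the other cells of the ear keep the gene. The labels name no treatment in any group. The labels name keratinocytes as the source, whereas the tissue field and the protocol name the ear. Levels are given as FPKM, a read density per length of gene and per mapped reads of the library, which allows genes of different length to be set side by side.

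NF-κB is a transcription factor made of paired Rel subunits. Inhibitor proteins of the IκB family hold the pairs in the cytoplasm until a cytokine or danger signal leads to destruction of the inhibitor. The freed pairs enter the nucleus and switch on inflammatory genes together with the genes of their own inhibitors, so that the signal limits itself. In the epidermis this loop is known to govern chemokine production and the response to injury.

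At 10 weeks 7 of the 10 members were higher in *Socs3* cKO than in WT and none was lower. The largest differences were in *Tnfaip3* (log2 FC 5.33), *Rel* (4.01), *Nfkbiz* (3.67) and *Nfkbia* (3.07). *Rela*, *Relb* and *Nfkbib* did not pass the test. At 2 weeks only *Rel* passed, at a log2 FC of 2.14. At both ages *Rel* was below 1 FPKM in every WT mouse and entered the test only through its *Socs3* cKO values. Its calls are for that reason a description. A member passed, here and below, when its adjusted p in limma was below 0.01 and its fold change (FC) was at least 1 on the log2 scale, positive values meaning higher in *Socs3* cKO. At 10 weeks 14.9% of all 13105 genes tested passed, 12.5% higher and 2.43% lower. At 2 weeks 14.4% of 13524 genes passed, 7.24% higher and 7.19% lower.

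Facts of the whole set of libraries touch these results. The targeted gene, *Socs3*, ranged from 9.71 to 10.3 FPKM in WT and from 1.25 to 12.6 in *Socs3* cKO at 2 weeks, so the groups overlapped. At 10 weeks it ranged from 2.02 to 4.81 in WT and from 29.8 to 47.7 in *Socs3* cKO. Its level in the whole ear thus does not show the deletion and was higher in the group labelled with it. The ear also holds cells that keep the gene, and which cells gave this level was not tested. Every direction given for *Socs3* cKO is that of the libraries labelled so. *Socs3* cKO replicate 1 at 2 weeks stood apart from its group, with a correlation of 0.897 to the mean of the other 3 libraries against 0.934 to 0.965 for those. The calls and shares at 2 weeks, and the sums that it moved by more than a few percent, are therefore also given without it. The 3 WT libraries at 10 weeks stood apart from all others, with 1414 to 3176 genes listed at 0 FPKM against 4044 to 4423 in the other 12. Every difference between genotypes at 10 weeks, every interaction and every change with age in WT rests on these 3 libraries, the part of this feature in them was not tested, and calls of members lost without one of the 3 are named. Each group has its own run of library numbers in the titles, so library batch and condition cannot be told apart. In whole tissue, fewer cells of a type and less RNA per cell cannot be told apart either.

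**Figure D1:**
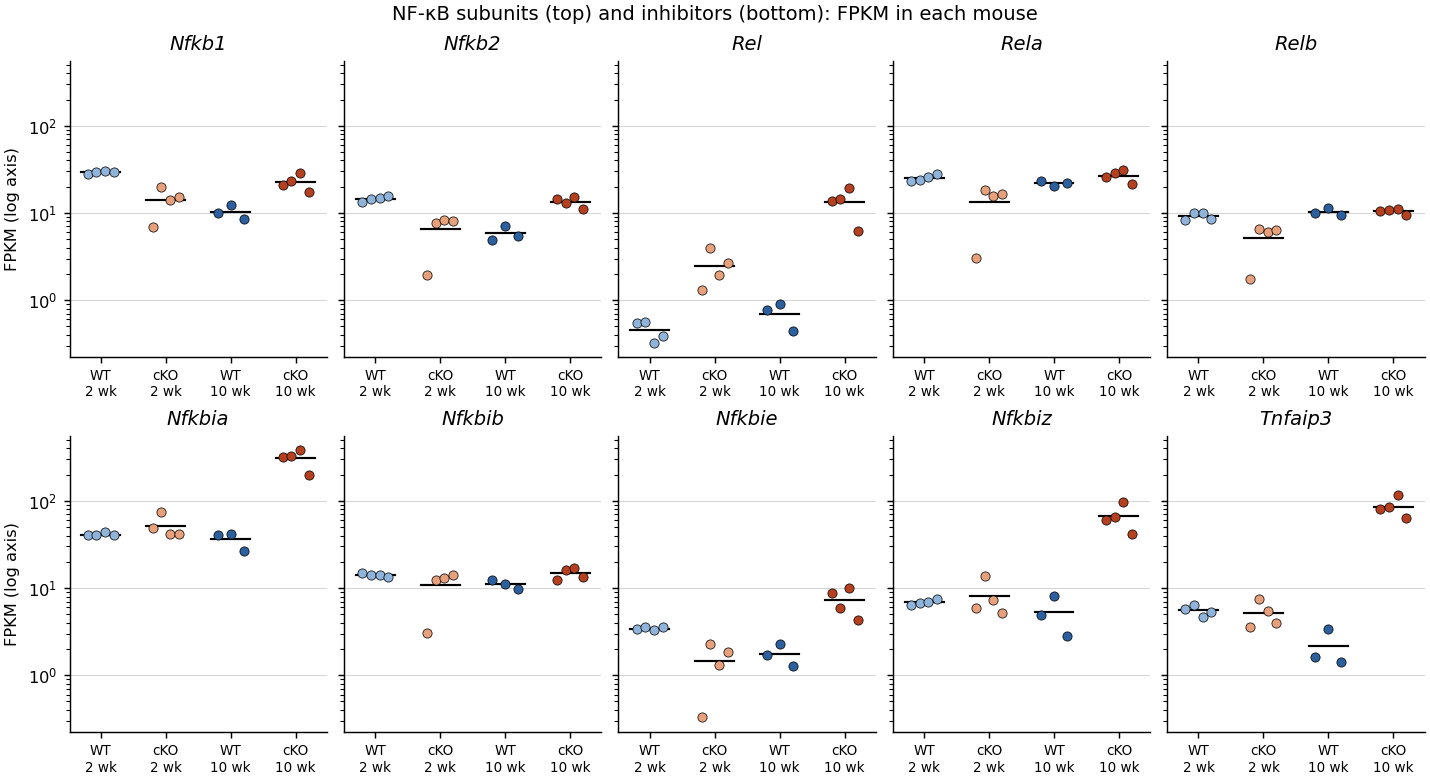
FPKM on a log axis (vertical) for each of the 10 members by group (horizontal), 1 point per mouse and a bar at the group mean, with subunits above and inhibitors below. The 4 *Socs3* cKO points at 10 weeks lie above every WT point of that age for *Nfkb1*, *Nfkb2*, *Rel*, *Nfkbia*, *Nfkbie*, *Nfkbiz* and *Tnfaip3*, while those of *Rela* and *Relb* overlap WT.

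The κB site is the short DNA element that Rel dimers bind. Its degenerate consensus of 10 letters was searched on both strands of RefSeq promoters of 300 bases (250 before to 50 after the start, build GRCm38.p6). The table held promoters of 7 members and no entry for *Nfkb1*, *Relb* and *Nfkbiz*. A match was present in 5 of the 7, *Nfkbia*, *Tnfaip3*, *Rel*, *Nfkbie* and *Nfkb2*, and in neither *Rela* nor *Nfkbib*. A match was held by 8.46% of all 32851 promoters and 9.55% of all 27025 genes. The 150 bases before the start are shown for the 5 genes with a match and for *Rela*, which held none. Whether genes with a match pass the test more often than others was not tested. They read 5′ to 3′ along the gene, with matches in capitals, overlapping ones run together.
*Nfkbia*, chr12:55492648-55492797, minus strand: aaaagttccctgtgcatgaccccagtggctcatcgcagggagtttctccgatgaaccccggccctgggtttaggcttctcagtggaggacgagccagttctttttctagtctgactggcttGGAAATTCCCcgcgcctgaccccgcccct
*Tnfaip3*, chr10:19015411-19015560, minus strand: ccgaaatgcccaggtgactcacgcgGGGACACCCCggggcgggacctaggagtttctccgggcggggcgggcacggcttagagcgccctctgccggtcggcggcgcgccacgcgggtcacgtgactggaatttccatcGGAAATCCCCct
*Rel*, chr11:23770970-23771119, minus strand: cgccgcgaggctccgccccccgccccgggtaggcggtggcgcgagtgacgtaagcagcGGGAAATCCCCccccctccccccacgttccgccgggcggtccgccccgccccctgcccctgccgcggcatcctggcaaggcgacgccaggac
*Nfkbie*, chr17:45555550-45555699, plus strand: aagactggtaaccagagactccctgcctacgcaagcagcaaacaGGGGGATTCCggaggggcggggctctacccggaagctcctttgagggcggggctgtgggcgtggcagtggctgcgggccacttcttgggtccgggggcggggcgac
*Nfkb2*, chr19:46304587-46304736, plus strand: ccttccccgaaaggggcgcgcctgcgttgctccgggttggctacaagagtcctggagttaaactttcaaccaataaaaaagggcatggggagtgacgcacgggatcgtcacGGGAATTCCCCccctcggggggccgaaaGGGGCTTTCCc
*Rela*, chr19:5637391-5637540, plus strand: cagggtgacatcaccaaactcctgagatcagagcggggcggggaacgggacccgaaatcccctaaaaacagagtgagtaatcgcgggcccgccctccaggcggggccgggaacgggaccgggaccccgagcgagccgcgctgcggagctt

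In *Nfkbia* the match lay 29 to 20 bases before the start. *Tnfaip3* held a match 125 to 116 bases and another 12 to 3 bases before its first start, and its other listed promoter held none. In *Rel* and *Nfkb2* matches on the opposite strands overlapped, at 92 to 82 and at 39 to 29 bases before the start. *Nfkb2* held another match 11 to 2 bases before it, and its other listed promoters held matches too. The windows of those other promoters overlap and share a match. A match is only a stretch of letters that fits the consensus, and binding was not measured in these mice.

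The subunits are described first, by role. *Nfkb1* (mm9 chromosome 3, 135247619 to 135354511, minus strand, 26 merged exon blocks) encodes the p105 precursor of the p50 subunit. At 2 weeks WT mice had 27.7, 29.5, 30.02 and 29.4 FPKM and *Socs3* cKO mice 6.84, 19.7, 13.9 and 15.4. At 10 weeks WT mice had 9.87, 12.4 and 8.47 FPKM and *Socs3* cKO mice 21.1, 23.5, 28.9 and 17.5. Every *Socs3* cKO mouse lay below WT at 2 weeks and above it at 10 weeks. The log2 FC was -1.15 at 2 weeks (SE 0.29, adjusted p = 0.0152), which did not pass, and 1.14 at 10 weeks (SE 0.21, adjusted p = 0.00379), which passed. The 10 week call was lost in 8 of 17 alternatives, among them quantile normalization (log2 FC 0.81) and median-of-ratios scaling (0.88).

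*Nfkb2* (chromosome 19, 46379227 to 46386580, plus strand, 23 exon blocks) encodes p100, the precursor of the p52 subunit of the noncanonical pathway. Its level at 2 weeks was 13.5, 14.4, 15.03 and 15.7 FPKM in WT mice, against 1.92, 7.68, 8.24 and 8.02 in *Socs3* cKO mice. The WT values at 10 weeks were 4.95, 7.14 and 5.4, and those of *Socs3* cKO 14.35, 12.9, 15.4 and 11.1. The groups did not overlap at either age, and *Socs3* cKO lay on the lower side at 2 weeks and on the higher side at 10. The test was passed at 10 weeks (log2 FC 1.2, SE 0.2, adjusted p = 0.00229) and not at 2 weeks (-1.37, SE 0.44, adjusted p = 0.0324). At 10 weeks the call was lost in 5 of 17 alternatives, which include both scalings (0.94 and 0.8) and the fit of all 4 groups together (adjusted p = 0.0259).

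*Rel* (chromosome 11, 23641514 to 23670970, minus strand, 10 exon blocks) encodes c-Rel, a transactivating subunit best known from lymphoid and myeloid cells. Its level at 2 weeks was 0.550, 0.557, 0.321 and 0.391 FPKM in WT mice, against 1.3, 4.01, 1.95 and 2.7 in *Socs3* cKO mice. At 10 weeks the values were 0.765, 0.892 and 0.439 in WT mice and 13.65, 14.4, 19.2 and 6.15 in *Socs3* cKO. No *Socs3* cKO mouse overlapped WT at either age. *Rel* rose at 2 weeks by 2.14 (log2 FC, SE 0.34, adjusted p = 0.00262) and at 10 weeks by 4.01 (SE 0.38, adjusted p = 0.000178), a 4.4-fold and a 16.1-fold difference on the log2(FPKM + 0.1) scale. Every WT mouse was below 1 FPKM, so the gene passed the filter on low values through the *Socs3* cKO group alone, while the other 9 members had at least 1 FPKM in 3 mice or more of each genotype. As few as about 13 reads stood behind its lowest value.

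The 2 week call of *Rel* was less firm than the later one. It was kept without *Socs3* cKO replicate 1 (log2 FC 2.4, adjusted p = 0.00019). It was lost with the replicate number as a block (adjusted p = 0.0107), without WT replicate 3 (2.01, adjusted p = 0.0112) or replicate 4 (2.09, adjusted p = 0.0117), and after removal of the trend with length and GC content (1.44, adjusted p = 0.0331). In that order 5.55%, 6.83%, 6.48% and 12.7% of all genes passed in these fits, against the 14.4% given above. *Rel* has the lowest GC content of the 10 members, 44.1% against 49.4% to 59.4%, and the part of base composition in the 2 week value was not tested further. At 10 weeks the call held in all 17 alternatives, with log2 FC from 2.99 to 4.34.

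*Rela* (chromosome 19, 5637483 to 5648130, plus strand, 11 exon blocks) encodes p65, the main transactivating subunit of the canonical pathway. WT mice had 23.6, 23.98, 26.2 and 28.01 FPKM at 2 weeks and *Socs3* cKO mice 3.03, 18.2, 15.8 and 16.6. The 10 week levels were 23.5, 20.4 and 21.8 FPKM in WT mice, against 25.6, 28.5, 31.1 and 21.4 in *Socs3* cKO mice. At the earlier age the groups were apart with *Socs3* cKO lower, and replicate 1 was far below the rest. At the later age they overlapped. The log2 FC was -1.2 (SE 0.53, adjusted p = 0.0863) at 2 weeks and 0.27 (SE 0.17, adjusted p = 0.238) at 10 weeks, and neither passed.

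*Relb* (chromosome 7, 20191566 to 20214787, minus strand, 15 exon blocks) encodes the partner of p52. The WT values at 2 weeks were 8.38, 9.95, 10.04 and 8.48 FPKM, and those of *Socs3* cKO were 1.74, 6.62, 6.07 and 6.44. At 10 weeks WT mice had 9.89, 11.4 and 9.49 FPKM and *Socs3* cKO mice 10.5, 10.9, 11.2 and 9.4. The groups were apart at 2 weeks, with *Socs3* cKO lower, and interleaved at 10 weeks. Neither difference passed, with log2 FC -0.97 (SE 0.4, adjusted p = 0.0739) and 0.03 (SE 0.17, adjusted p = 0.884). The 10 week value changed sign under both scalings, to -0.22 and -0.34.

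*Nfkbia* (chromosome 12, 56590398 to 56593634, minus strand, 6 exon blocks) encodes IκBα, the inhibitor that is destroyed and resynthesized in each round of activation. WT mice had 40.2, 40.2, 43.5 and 40.6 FPKM at 2 weeks and *Socs3* cKO mice 48.8, 75.5, 41.96 and 41.7. At 10 weeks WT mice had 40.2, 41.7 and 26.9 FPKM, whereas *Socs3* cKO mice had 318, 331, 387 and 197. The groups overlapped at 2 weeks, where 1 *Socs3* cKO mouse was well above the others, and were far apart at 10 weeks. The log2 FC was 0.29 at 2 weeks (SE 0.2, adjusted p = 0.232) and 3.07 at 10 weeks (SE 0.26, adjusted p = 8.63e-05), an 8.39-fold rise.

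*Nfkbiz* (chromosome 16, 55811488 to 55839012, minus strand, 15 exon blocks) encodes IκBζ, a nuclear family member that acts on p50 at a group of secondary targets and is induced in keratinocytes by interleukin 17. The 2 week levels were 6.35, 6.82, 6.85 and 7.49 FPKM in WT mice, against 5.93, 13.8, 7.285 and 5.2 in *Socs3* cKO mice. The 10 week levels were 4.96, 8.2 and 2.85 FPKM in WT mice, against 60.96, 65.1, 97.6 and 41.8 in *Socs3* cKO mice. The 2 week *Socs3* cKO mice spread to both sides of WT, and the 10 week mice lay above it without overlap. *Nfkbiz* rose by 3.67 at 10 weeks (log2 FC, SE 0.36, adjusted p = 0.000213), 12.8-fold. At 2 weeks the log2 FC was 0.12 (SE 0.29, adjusted p = 0.738), and it turned to -0.17 without *Socs3* cKO replicate 2.

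*Tnfaip3* (chromosome 10, 18720716 to 18735463, minus strand, 9 exon blocks) encodes A20, a ubiquitin-editing enzyme that shuts off signaling upstream of the inhibitor kinase. At 2 weeks WT mice had 5.77, 6.39, 4.7 and 5.26 FPKM and *Socs3* cKO mice 3.6, 7.55, 5.42 and 3.95. Levels at 10 weeks were 1.63, 3.39 and 1.43 FPKM in WT mice, against 79.98, 85.98, 115.6 and 63.1 in *Socs3* cKO mice. The groups overlapped at 2 weeks and were separated by a wide gap at 10 weeks, the widest of the 10 members on the log2 scale. Its rise at 10 weeks was 5.33 (log2 FC, SE 0.3, adjusted p = 9.84e-06), or 40.2-fold. The 2 week log2 FC of -0.16 (SE 0.25, adjusted p = 0.604) turned positive under both scalings (0.04 and 0.28).

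*Nfkbie* (chromosome 17, 45692665 to 45700118, plus strand, 6 exon blocks) encodes IκBε, an inhibitor that retains p65 and c-Rel. At 2 weeks WT mice had 3.36, 3.55, 3.28 and 3.55 FPKM and *Socs3* cKO mice 0.333, 2.26, 1.315 and 1.86. WT mice had 1.72, 2.3 and 1.27 FPKM at 10 weeks, against 8.69, 5.92, 10.1 and 4.34 in *Socs3* cKO mice. *Socs3* cKO lay wholly below WT at the first age and wholly above it at the second. The rise of 1.94 at 10 weeks (log2 FC, SE 0.32, adjusted p = 0.00229, 3.85-fold) passed, and the 2 week value of -1.44 (SE 0.48, adjusted p = 0.0375) did not. The 10 week call was lost without WT replicate 1 (1.95, adjusted p = 0.0105) or replicate 3 (1.74, adjusted p = 0.0134), and with no expression filter (adjusted p = 0.0142). In that order 7.23%, 5.76% and 5.36% of all genes passed in these fits, against the 14.9% given above.

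*Nfkbib* (chromosome 7, 29543270 to 29552531, minus strand, 8 exon blocks) encodes IκBβ, the slower companion of IκBα. Levels at 2 weeks were 14.7, 13.9, 14.1 and 13.4 FPKM in WT mice, against 3.09, 12.5, 12.97 and 14.2 in *Socs3* cKO mice. Levels at 10 weeks were 12.5, 11.1 and 9.79 FPKM in WT mice, against 12.5, 16.03, 17.2 and 13.3 in *Socs3* cKO mice. Apart from *Socs3* cKO replicate 1, the 2 week mice covered much the same range, and at 10 weeks the lowest *Socs3* cKO mouse was level with the highest WT mouse. The log2 FC was -0.6 (SE 0.45, adjusted p = 0.277) and 0.4 (SE 0.18, adjusted p = 0.109), and neither passed.

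**Figure D2:**
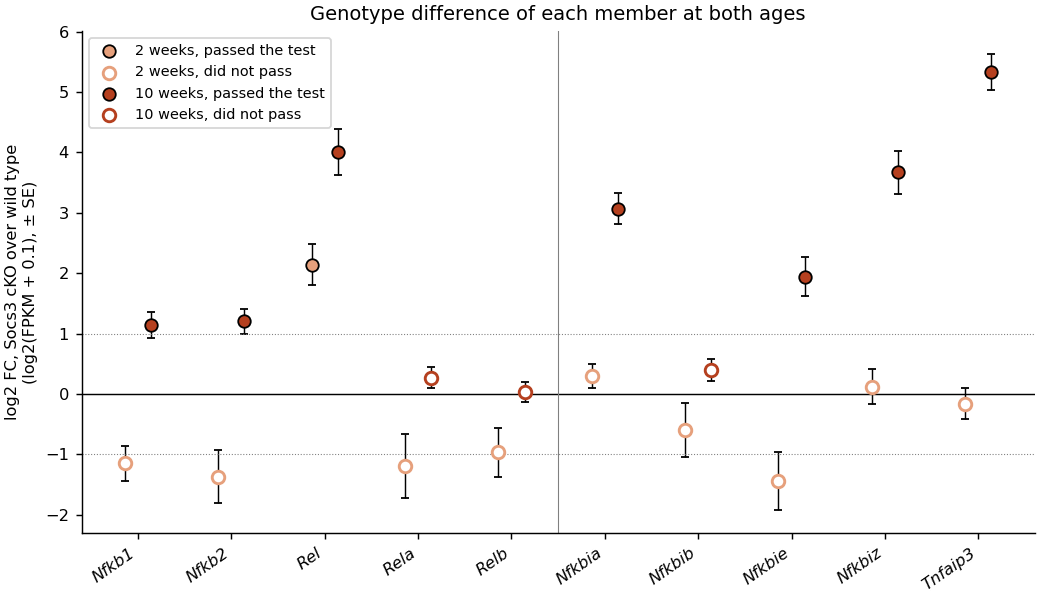
Log2 FC of *Socs3* cKO over WT (vertical, on the log2(FPKM + 0.1) scale) for each member (horizontal) at 2 and 10 weeks, with bars for the SE. Filled points passed the test and open ones did not, and the dotted lines mark a log2 FC of 1 and -1. At 10 weeks the points run from 0.03 for *Relb* to 5.33 for *Tnfaip3*, and at 2 weeks from -1.44 for *Nfkbie* to 2.14 for *Rel*.

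By class, 3 of the 5 subunits, *Rel* among them, and 4 of the 5 inhibitors were higher at 10 weeks, with a median log2 FC of 1.14 and 3.07. The median over the 10 members was 1.57, beside 0.31 over all genes tested. That shift of all genes was 0.06 after median-of-ratios scaling and -0.02 after quantile normalization. *Nfkbia*, *Nfkbiz* and *Tnfaip3* passed in each of the 17 alternatives run. *Rel* did so too, but it entered the test only through its *Socs3* cKO values, so its calls and its part in these counts are a description. The calls of *Nfkb1*, *Nfkb2* and *Nfkbie* were all lost without WT replicate 1 or without WT replicate 3, which left 4 of 10 members passing. In these fits 7.23% and 5.76% of all genes passed, against 14.9% with all mice. *Nfkb1* also lost its call without *Socs3* cKO replicate 1, 2 or 3 (1.02 to 1.17, adjusted p = 0.0104 to 0.0122), where 8.94% to 9.43% of all genes passed. Members above every WT mouse at 10 weeks were these 7 and *Nfkbib*, by a narrow margin in the latter, where 31.2% of all genes tested lay higher without overlap and 11.1% lower. The exact permutation test gave p = 0.0571 for each of them, the smallest 2-sided p that 3 mice against 4 allow.

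At 2 weeks the median of the members was -0.79 beside -0.21 over all genes, and 7 of the 10 log2 FC values were negative. *Nfkb1*, *Nfkb2*, *Rela*, *Relb* and *Nfkbie* were lower in every *Socs3* cKO mouse than in any WT mouse, with an exact permutation p of 0.0286 each, the smallest that 4 against 4 allow. Of all genes tested 33.2% lay lower without overlap in the same way, and 22.9% higher. Without *Socs3* cKO replicate 1 the log2 FC values of these 5 genes shrank to -0.85, -0.87, -0.59, -0.52 and -0.92, with adjusted p from 0.000121 to 0.00405, so that the size and not the p-value kept them from passing. *Nfkbia* was then at 0.31, *Nfkbib* at -0.09, *Nfkbiz* at 0.23 and *Tnfaip3* at -0.01. With the trend in length and GC content removed in all mice *Nfkb1*, *Nfkb2*, *Rela*, *Relb* and *Nfkbie* were at -0.65, -0.41, -0.38, -0.24 and -1.09. In the fit of all 4 groups *Nfkb1* and *Nfkb2* passed as lower (adjusted p = 0.00308 and 0.00633), and *Nfkb1* did so without *Socs3* cKO replicate 2 (-1.35, adjusted p = 0.00561). More of all genes passed in these fits too, 23.7% and 24.9% against 14.4%.

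Markers of other cells of the ear moved with genotype at 10 weeks and stand beside the rises of the members. Their counts are to be read beside the 12.5% of all genes that passed as higher and the 2.43% that passed as lower. Of 6 macrophage and monocyte markers in the files 4 passed as higher, and their summed FPKM was 249 to 414 in WT and 579 to 1000 in *Socs3* cKO. Of 5 dendritic and Langerhans cell markers 3 were higher (753 to 892 against 1440 to 2220), and of 4 endothelial markers 3 (12.7 to 17.5 against 30.9 to 40.9). Of 4 pan-leukocyte markers 1 was higher, *Ptprc*, which encodes the leukocyte antigen CD45 (3.92 to 5.86 FPKM in WT, 11.5 to 16.1 in *Socs3* cKO), while the sums of the 4 overlapped (98.5 to 179 and 125 to 187). Neutrophil markers summed to 7.65 to 9.89 in WT and 3.01 to 9.59 in *Socs3* cKO, with none of 3 tested passing in limma (1 lower at an unadjusted p below 0.05), and the T cell sums overlapped (34.9 to 37.8 and 34.1 to 50.6) with 1 of 5 tested passing as higher. The keratinocyte sums were 4750 to 9510 and 7510 to 11500, so the labelled cell type was well represented in both groups, with 1 of 6 markers passing as higher. Mast cell (284 to 320 and 274 to 526), fibroblast (2640 to 4770 and 4170 to 7420) and B cell sums (2.09 to 4.03 and 0.891 to 2.46) overlapped, with 1 of 5 mast cell and 1 of 4 fibroblast markers passing as higher. No marker was at 0 in every mouse of a group, and the part of these cells in the member levels was not tested.

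At 2 weeks more of the marker sums were apart between genotypes, in both directions. Beside the counts that follow, 7.24% of all genes passed as higher at this age and 7.19% as lower. Macrophage markers summed to 195 to 231 FPKM in WT and 293 to 641 in *Socs3* cKO, but none of the 6 passed in limma (2 higher and 1 lower at an unadjusted p below 0.05). Dendritic and Langerhans cell markers summed to 569 to 701 and 724 to 808, with 2 of 5 passing as higher, and mast cell markers to 287 to 305 and 364 to 683, with 1 of 4 tested passing as higher. Of 5 T cell markers tested 2 passed as higher and 1 as lower (17.8 to 26.1 against 28.9 to 47.1). On the lower side were fibroblast markers, at 7920 to 9520 and 3180 to 4380 with 2 of 4 passing as lower and 1 as higher, and endothelial markers, at 57.8 to 64.5 and 39.6 to 50.2 with none of 4 passing in limma (2 lower at an unadjusted p below 0.05). Pan-leukocyte (93.6 to 105 and 87.4 to 129), keratinocyte (7630 to 8370 and 5760 to 11600, 1 of 6 higher), neutrophil (2.06 to 3.15 and 1.57 to 4.34) and B cell sums (1.16 to 1.9 and 0.613 to 1.17) overlapped. Without *Socs3* cKO replicate 1 the highest sums fell to 431 for macrophage, 555 for mast cell, 34.2 for T cell and 4040 for fibroblast markers, and the lowest keratinocyte sum rose to 7930. The B cell sums, then 0.613 to 0.945, no longer overlapped. The markers that passed without replicate 1 were *Cd207*, *Ms4a2* and *Cd3d* as higher and *Cd4*, *Cdh5*, *Col1a1* and *Col1a2* as lower, where 19.9% of all genes passed. The part of these cells in the rise of *Rel* and in the lower subunit values was not tested.

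The difference between the genotype effects at the 2 ages was tested directly as an interaction, for which an adjusted p below 0.01 was enough to pass. Of all 13937 genes 25.6% passed, 18.5% with the 10 week effect more positive and 7.05% with it more negative. Of the members 6 of 10 passed, all with the 10 week effect more positive. The effect at 10 weeks exceeded that at 2 weeks by 5.49 in *Tnfaip3* (SE 0.42, adjusted p = 2.08e-06), 3.55 in *Nfkbiz* (SE 0.5, adjusted p = 0.000206) and 3.39 in *Nfkbie* (SE 0.63, adjusted p = 0.00126). In *Nfkbia* it was 2.78 (SE 0.34, adjusted p = 7.28e-05), in *Nfkb2* 2.56 (SE 0.52, adjusted p = 0.00206) and in *Nfkb1* 2.29 (SE 0.39, adjusted p = 0.000701). *Rel* did not pass (1.87, SE 0.55, adjusted p = 0.014), and neither did *Rela* (1.47), *Relb* (1.01) or *Nfkbib* (1.0). *Rela* passed without *Socs3* cKO replicate 1 at 2 weeks (0.86, adjusted p = 0.00198). *Rel* passed without *Socs3* cKO replicate 2 at 2 weeks (2.13, adjusted p = 0.00471) or replicate 4 at 10 weeks (2.21, adjusted p = 0.00336). It also passed with a pseudocount of 1 (1.79, adjusted p = 0.00325) and with the length and GC trend removed (2.48, adjusted p = 0.00842). In these fits of *Rela* and *Rel* 26.7% to 36.8% of all genes passed. The median of all genes was 0.55 in this contrast.

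Both genotypes changed with age, which enters that contrast. In WT 2 members fell from 2 to 10 weeks and none rose, where 25.5% of all genes passed, 19.4% lower and 6.18% higher. *Nfkb1* fell by 1.52 on the log2 scale (SE 0.28, adjusted p = 0.000729) and *Tnfaip3* fell by 1.42 (SE 0.31, adjusted p = 0.00199). *Nfkb2* had a log2 FC of -1.33 (adjusted p = 0.0108), just short of passing, and it passed when *Socs3* cKO replicate 1 at 2 weeks was left out of the shared fit (adjusted p = 5.29e-06). The median of the members was -0.41, close to the -0.44 of all genes. The call of *Tnfaip3* was lost with quantile normalization (-0.77), with the length and GC trend removed (-0.98), and without WT replicate 1 or 3 at 10 weeks. Without these mice 16.6% and 15.9% of all genes passed.

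In *Socs3* cKO 5 members rose with age and none fell, where 3.54% of all genes passed, 2.01% higher. *Tnfaip3* rose by 4.07 (SE 0.28, adjusted p = 8.28e-07), *Nfkbiz* by 3.07 (SE 0.34, adjusted p = 6.19e-05) and *Nfkbia* by 2.57 (SE 0.23, adjusted p = 9.88e-06). *Nfkbie* rose by 2.43 (SE 0.43, adjusted p = 0.00261) and *Rel* by 2.38 (SE 0.37, adjusted p = 0.00107). The median of the members was 1.82 and that of all genes 0.11. *Nfkbie* lost its call without *Socs3* cKO replicate 1 or 3 at 10 weeks (2.32 and 2.25, adjusted p = 0.011 and 0.0119), where 2.29% and 2.16% of all genes passed. The contrasts within age and within genotype share mice, so the counts are not independent of each other.

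FPKM is per length, so the members can be ranked within a group. In WT at 10 weeks the order of mean FPKM was *Nfkbia* (36.3 ± 8.15, SD, n = 3), *Rela* (21.9 ± 1.54), *Nfkbib* (11.1 ± 1.37), *Relb* (10.3 ± 1.03), *Nfkb1* (10.2 ± 1.97), *Nfkb2* (5.83 ± 1.16), *Nfkbiz* (5.34 ± 2.7), *Tnfaip3* (2.15 ± 1.08), *Nfkbie* (1.76 ± 0.513) and *Rel* (0.698 ± 0.234). Ranges of *Nfkbib*, *Relb* and *Nfkb1* overlapped, as did those of *Nfkb2* and *Nfkbiz*, of *Nfkbiz* and *Tnfaip3*, and of *Tnfaip3* and *Nfkbie*. *Rel* lay below all others in both WT groups. In *Socs3* cKO at 10 weeks *Nfkbia* again led (308 ± 79.9, SD, n = 4), followed by *Tnfaip3* (86.2 ± 21.9) and *Nfkbiz* (66.4 ± 23.2), whose ranges overlapped. *Rela* came next (26.7 ± 4.15), ahead of *Nfkb1* (22.8 ± 4.77) with overlapping ranges. *Nfkbib* (14.8 ± 2.2), *Nfkb2* (13.4 ± 1.87), *Rel* (13.3 ± 5.41) and *Relb* (10.5 ± 0.783) overlapped their neighbours, and *Nfkbie* (7.26 ± 2.61) was last.

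**Figure D3:**
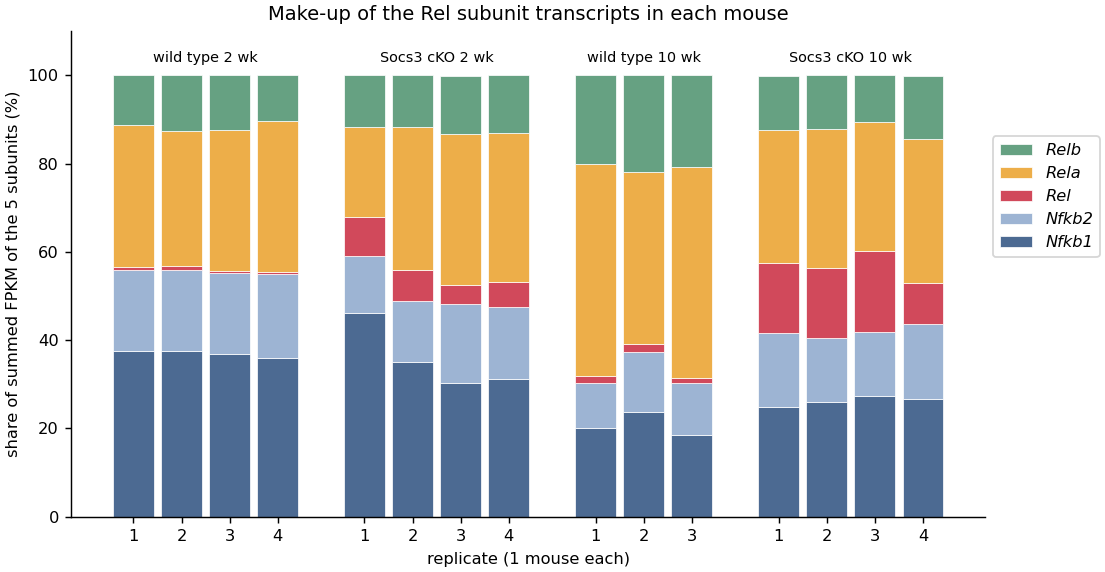
Share of each subunit in the summed FPKM of the 5 subunits (vertical, %), 1 stacked bar per mouse, grouped by genotype and age (horizontal). The *Rel* segment is at most 1.71% in the 7 WT mice and reaches 9.37% to 18.2% in the 4 *Socs3* cKO mice at 10 weeks.

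The make-up of the subunit transcripts was compared within each library, since a share does not depend on scaling between libraries. *Rel* made up 0.582% ± 0.174 of the subunit sum in WT at 2 weeks (SD, n = 4) and 6.4% ± 1.96 in *Socs3* cKO (n = 4), or 5.62% ± 1.45 without replicate 1 (n = 3). At 10 weeks its share was 1.41% ± 0.396 in WT (n = 3) and 14.9% ± 3.82 in *Socs3* cKO (n = 4). The groups did not overlap at either age. *Rela* held 45.0% ± 5.11 in WT at 10 weeks and 30.9% ± 1.47 in *Socs3* cKO, a lower share at a level that did not pass the test in either direction. *Relb* likewise held 21.0% ± 0.862 and 12.3% ± 1.52, whereas *Nfkb1* held 20.8% ± 2.61 and 26.2% ± 1.07. The share of *Nfkb2* was apart at both ages, in opposite directions, at 18.6% ± 0.37 in WT and 15.2% ± 2.28 in *Socs3* cKO at 2 weeks (16.0% ± 2.12 without replicate 1), and at 11.9% ± 1.8 and 15.7% ± 1.39 at 10 weeks. At 2 weeks the shares of *Rela* (32.2% ± 1.48 and 30.2% ± 6.59), *Relb* (11.7% ± 1.07 and 12.5% ± 0.78) and *Nfkb1* (37.0% ± 0.81 and 35.7% ± 7.24) overlapped between genotypes. Without replicate 1 they were 33.5% ± 1.04, 12.7% ± 0.781 and 32.2% ± 2.53 in *Socs3* cKO, and those of *Nfkb1*, then 30.3% to 35.1%, lay below the WT range of 35.9% to 37.6%.

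The summed FPKM of the 5 inhibitors, divided by that of the 5 subunits, was 0.858 to 0.956 in WT at 2 weeks and 0.925 to 1.28 at 10 weeks. In *Socs3* cKO it was 1.36 to 4.16 at 2 weeks and 4.87 to 5.93 at 10 weeks, above every WT mouse of the same age. The 4.16 was replicate 1 alone, with a subunit sum of 14.8 FPKM, and the other 3 mice of that group were at 1.36 to 1.98. *Nfkbia* set most of this ratio, as the most abundant member in all 4 groups. The inhibitor sum also holds *Nfkbiz*, whose product acts on p50 in the nucleus, so the ratio is no measure of inhibition.

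**Figure D4:**
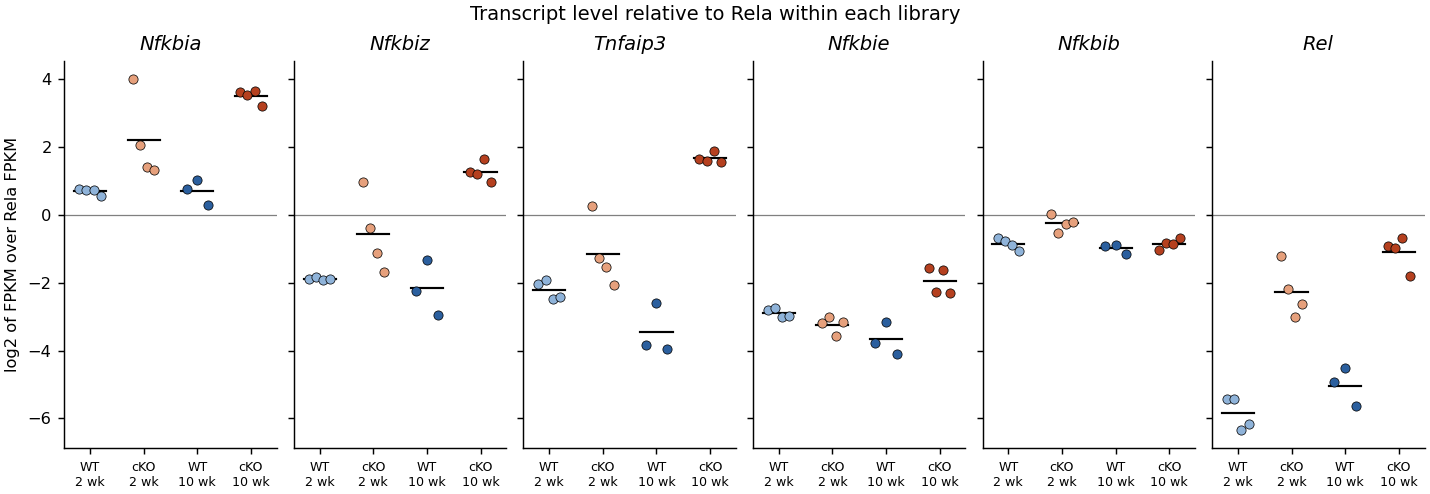
Log2 of the FPKM of 6 members over the FPKM of *Rela* in the same library (vertical) by group (horizontal), 1 point per mouse and a bar at the mean. *Tnfaip3* and *Nfkbiz* lie below *Rela* in every WT mouse and above it in every *Socs3* cKO mouse at 10 weeks, while *Nfkbib* has means from -0.99 to -0.25, the highest in *Socs3* cKO at 2 weeks.

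The level of each inhibitor was also set against that of *Rela* in the same library. The FPKM of *Nfkbia* was 1.66 ± 0.407 times that of *Rela* in WT at 10 weeks (SD, n = 3) and 11.4 ± 1.53 times in *Socs3* cKO (n = 4). *Tnfaip3* went from 0.1 ± 0.057 to 3.20 ± 0.356 times, and *Nfkbiz* from 0.248 ± 0.14 to 2.44 ± 0.503 times. The ratio of *Nfkbib* was 0.507 ± 0.0515 in WT and 0.556 ± 0.054 in *Socs3* cKO, which differed by about the spread between mice. At 2 weeks *Nfkbia* was 1.45 to 1.7 times *Rela* in WT and 2.51 to 16.1 times in *Socs3* cKO. The top of that range is replicate 1, in which *Rela* itself was 3.03 FPKM, and without it the range was 2.51 to 4.15. *Nfkbib* was 0.556 ± 0.0628 times *Rela* in WT and 0.847 ± 0.137 times in *Socs3* cKO at 2 weeks (0.789 ± 0.0892 without replicate 1), without overlap.

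Around the 10 members stand the other genes of the pathway, counted from lists. Both other IκB family genes were higher at 10 weeks. *Bcl3*, a nuclear partner of p50 and p52, was 1.49 to 2.08 FPKM in WT and 7.07 to 15.8 in *Socs3* cKO (log2 FC 2.57, SE 0.28, adjusted p = 0.000306). *Nfkbid*, which encodes IκBNS, was 0.666 to 1.55 and 2.31 to 4.14 FPKM (1.64, SE 0.33, adjusted p = 0.00491). At 2 weeks neither passed, with log2 FC of -1.8 (adjusted p = 0.0327) and -0.77 (adjusted p = 0.107). Leaving out *Socs3* cKO replicate 1 made *Bcl3* pass as lower at 2 weeks (-1.13, adjusted p = 0.000152), where 19.9% of all genes passed. *Bcl3* also did so in the fit of all 4 groups (adjusted p = 0.00703) and with a pseudocount of 1 (-1.21, adjusted p = 0.00967). In these fits 23.7% and 15.4% of all genes passed. At 10 weeks 1 of the pair passed without WT replicate 3 or *Socs3* cKO replicate 1, 2 or 3. The share of all genes was then 5.76% without that WT mouse and 8.94% to 9.43% without those *Socs3* cKO mice. *Nfkbid* also lost its 10 week call with median-of-ratios scaling (1.39, adjusted p = 0.0111), quantile normalization (1.28, adjusted p = 0.0194) and no expression filter (adjusted p = 0.02). Under each scaling 13.0% of all genes passed, and 5.36% with no filter.

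Of 24 kinases and adaptors upstream of NF-κB 6 passed as higher at 10 weeks and none as lower, with a median log2 FC of 0.75. Beside this, 12.5% of all genes tested passed as higher, and the median of all genes was 0.31. The 6 include *Map3k8* (1.96), which encodes the kinase TPL2, *Birc3* (1.87), a ubiquitin ligase of the TNF receptor complex, *Map3k14* (1.46), the kinase NIK of the noncanonical pathway, and *Bcl10* (1.3), an adaptor. This count ranged from 3 to 9 over the alternatives, with 4 without WT replicate 1 or 3 or *Socs3* cKO replicate 1, 2 or 3, and 9 without WT replicate 2. The share of all genes passing moved too, from 14.9% to 7.23% and 5.76% without WT replicate 1 and 3. It was 8.94% to 9.43% without *Socs3* cKO replicate 1, 2 or 3, and 20.7% without WT replicate 2. At 2 weeks the only one to pass was *Traf1*, an adaptor of TNF receptors, with a log2 FC of -2.43, and the median was -0.37. At that age 7.19% of all genes passed as lower, and the median of all genes was -0.21. Without *Socs3* cKO replicate 1 or 2 there were 2 and 3 of this list, where 19.9% and 24.9% of all genes passed. Of 15 other negative regulators 4 were higher at 10 weeks (median 0.71), namely the RNase *Zc3h12a* (2.54), *Tnip3* (2.05), *Irak3* (1.72) and *Tax1bp1* (1.03), a partner of A20. *Tnip3* was below 1 FPKM in every WT mouse and passed the filter only through *Socs3* cKO. That count ranged from 1 to 5, and it was 2 without WT replicate 1 or 3 or *Socs3* cKO replicate 1, 2 or 3. The shares of all genes in these fits are those given for the kinases and adaptors. At 2 weeks none of 14 passed in limma (4 higher and 3 lower at an unadjusted p below 0.05), with a median of -0.12, and 1 and 2 passed without *Socs3* cKO replicate 1 and 2.

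**Figure D5:**
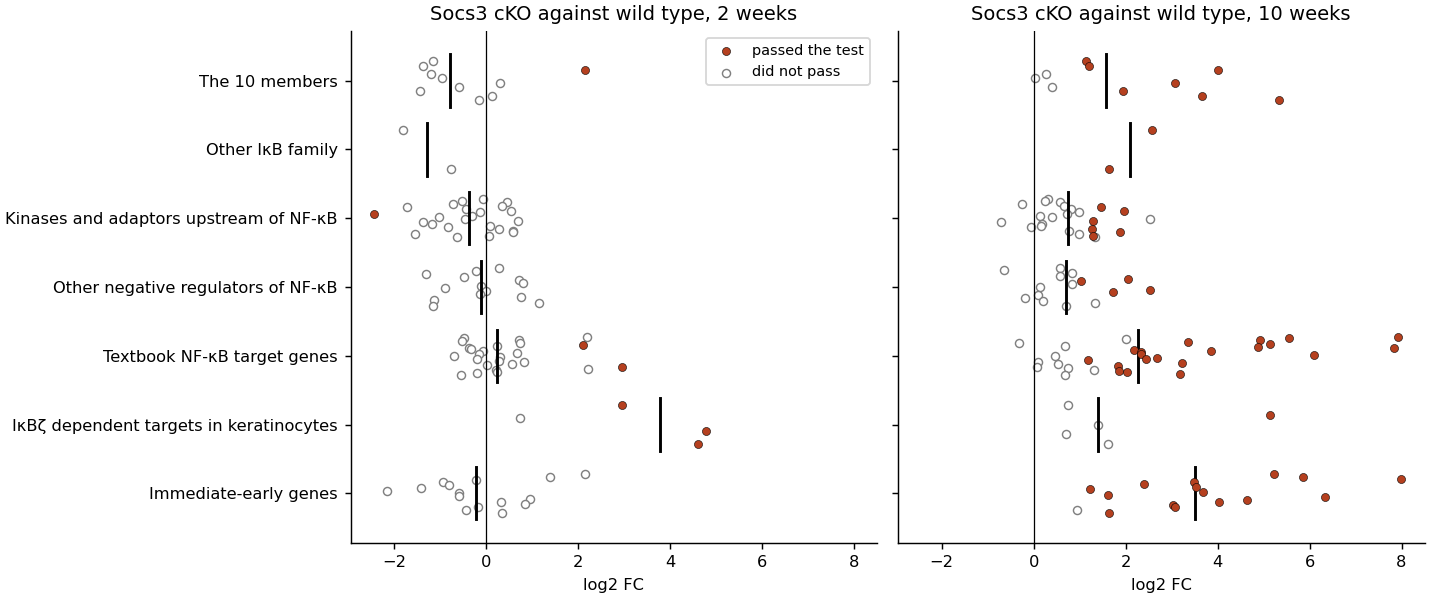
Log2 FC of *Socs3* cKO over WT (horizontal) for the tested genes of each list (vertical) at 2 weeks (left) and 10 weeks (right), 1 point per gene. Filled points passed the test, open ones did not, and the black bar is the list's median. At 10 weeks 20 of 30 textbook targets and 15 of 16 immediate-early genes are filled, and at 2 weeks 2 of 25 and 0 of 15. Of all genes 14.9% passed at 10 weeks and 14.4% at 2 weeks.

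Of 30 textbook NF-κB targets tested at 10 weeks 20 were higher and none lower, with a median log2 FC of 2.26. At that age 12.5% of all genes passed as higher and 2.43% as lower, and the median of all genes was 0.31. The largest were the chemokine *Cxcl1* (0.164 to 0.97 FPKM in WT, 101 to 223 in *Socs3* cKO, log2 FC 7.93), the cytokine *Il6* (7.84), the prostaglandin synthase *Ptgs2* (6.1) and *Cxcl2* (5.55). In these 4 and in *Sele*, 5 of the 20, no WT mouse reached 1 FPKM, so they passed the filter on low values only through the group in which they were high. The count and median over the tested targets are for that reason a description. At 2 weeks 2 of 25 tested were higher, a share near the 7.24% of all genes. They were *Lcn2* (2.96) and *Il1a* (2.11), and the median was 0.24. The same 2 passed without *Socs3* cKO replicate 1. Of the targets ascribed to IκBζ in keratinocytes 3 of 4 tested were higher at 2 weeks, *S100a8* (4.77), *S100a9* (4.6) and *Lcn2*, an age at which *Nfkbiz* itself did not pass, and these 3 also passed without *Socs3* cKO replicate 1. Beside them, 7.24% of all genes passed as higher at 2 weeks, and 19.9% passed in either direction without that replicate. At 10 weeks, when *Nfkbiz* was 12.8-fold higher, 1 of 5 passed, the chemokine *Ccl20* (5.15), beside 12.5% of all genes as higher. The median of these 5 genes was 1.39. All 5 log2 FC values were positive, but *Socs3* cKO mice of that age lay far apart. They ranged from 7.42 to 838 FPKM in *S100a8*, 5.13 to 425 in *S100a9* and 5.98 to 17.1 in *Lcn2*. Whether these genes follow *Nfkbiz* was not tested. *Lcn2* and *Ccl20* stand on both lists.

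Immediate-early genes, which respond to many signals within minutes and also to tissue handling, moved with the members. At 10 weeks 15 of 16 were higher and none lower (median 3.51), with *Fosl1* (7.98), *Nr4a1* (6.33), *Fosb* (5.85) and *Fos* (5.22) leading. Of all genes tested 12.5% passed as higher and 2.43% as lower at that age, with a median of 0.31. *Fosl1* likewise passed the filter only through *Socs3* cKO. The summed FPKM of the 16 genes was 193 to 329 in WT and 1580 to 2480 in *Socs3* cKO. At 2 weeks none of 15 passed in limma (2 lower at an unadjusted p below 0.05), while 2 passed without *Socs3* cKO replicate 1 and 1 without replicate 2 or 4. Of all genes 14.4% passed with all mice, and 19.9%, 24.9% and 8.6% without replicate 1, 2 and 4. The sums were 472 to 505 in WT and 205 to 1040 in *Socs3* cKO, or 289 to 1040 without replicate 1. The part of handling or of this response in the levels of *Nfkbia*, *Nfkbiz* and *Tnfaip3* was not tested.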

How the data were processed

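Ear RNA of 15 mice was sequenced by the authors as single reads of 50 bases. Per the submitters' processing notes and the study's methods, TopHat2 (version 2.1.0) aligned reads to mm9, and the notes also name Cufflinks. The authors deposited FPKM, 1 value for each of 21110 genes in each library, normalized for gene length and mapped reads. Their own test needs read counts, which were not used here, so limma (version 3.58.1, R 4.3.3, trend in the prior variance) was run on log2(FPKM + 0.1), so fold changes of low genes are understated. Depth was estimated from the value of single reads at 11300000 to 15900000 mapped reads per library. It limits low genes such as *Rel*, and no interval was derived from it. The step was tested on simulated data.

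Genes with at least 1 FPKM in at least 3 of the fitted libraries were tested, 2-sided, with Benjamini-Hochberg adjustment over all genes. Genotypes were compared within each age on the groups concerned. The interaction and age contrasts used 1 fit of the 4 groups. Exact permutation tests and ratios were computed in Python 3.11.15 (scipy 1.17.1, numpy 2.4.6, pandas 2.3.3), and figures with matplotlib 3.10.9. Each library is labelled as a replicate and p-values measure the spread between libraries. Groups came from the labels. The paper states more WT mice, and these were not analysed here.

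Gene positions came from a GENCODE annotation of mm9, promoters from RefSeq (GRCm38.p6). The members and lists were chosen with earlier results of these data known. All members were named, and from each list up to 4 passing genes with the largest absolute log2 FC, plus *Bcl3* and *Nfkbid*. For each member that passed, the 5 genes nearest in pattern were named. Alternatives were pseudocounts of 1 and 0.01, no filter or a stricter one, median-of-ratios scaling, quantile normalization, a replicate block, all 4 groups in 1 fit, a constant prior variance, leaving out each mouse, and, added after seeing the data, removal of the trend with length and GC content.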

Additional observations from a re-analysis of the deposited data

Results flagged for a closer look

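In 30 sets of 4 values, 1 for each member in each group of 4 mice, the highest or lowest mouse was tested for standing apart by Dixon's ratio, and 5 did. Chance flags about 1 set in 20. Of the 5, 4 were the lowest value of *Socs3* cKO replicate 1 at 2 weeks, which are not independent since they come from 1 library: *Nfkb2* at 1.92 FPKM, *Rela* at 3.03, *Relb* at 1.74 and *Nfkbib* at 3.09. The other was the highest WT value of *Nfkbia* at 2 weeks, 43.5 FPKM in replicate 3.

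The genotype effect differed between the ages, by the test of the interaction, in 6 members. The 10 week effect minus the 2 week effect was 2.29 on the log2 scale for *Nfkb1*, 2.56 for *Nfkb2*, 2.78 for *Nfkbia*, 3.39 for *Nfkbie*, 3.55 for *Nfkbiz* and 5.49 for *Tnfaip3*.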

How the results depend on the processing

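At 2 weeks 1 member passed, and the count was 3 with all 4 groups in one fit, 0 with the replicate block, 0 with the length and GC trend removed, and 0 to 2 when a mouse was left out. The share of all genes was 14.4%, and in the same order 23.7%, 5.55%, 12.7% and 6.4% to 24.9%. At 10 weeks 7 passed, and 4 to 7 when a mouse was left out, where the share of all genes was 14.9%, and 5.76% to 20.7%. With age in WT 2 passed, 1 with quantile normalization, 1 with the length and GC trend removed, and 1 to 3 when a mouse was left out. The share of all genes there was 25.5%, and in the same order 23.9%, 23.0% and 15.9% to 32.5%. For the interaction the count stayed between 6 and 7, where the share of all genes was 25.6%, and 14.4% to 36.8% over the alternatives. With age in *Socs3* cKO the count stayed between 4 and 6, where the share was 3.54%, and 2.11% to 5.03%. Values that changed sign belonged to members that had not passed. At 2 weeks *Nfkbiz* ranged from -0.17 to 0.29 when a mouse was left out, and *Tnfaip3* was 0.04 (median-of-ratios scaling), 0.28 (quantile normalization) and 0.04 without the length and GC trend. At 10 weeks *Relb* was -0.22 (median-of-ratios) and -0.34 (quantile), and ranged from -0.02 to 0.11 when a mouse was left out. With age in WT *Rela* was 0.18 (median-of-ratios), 0.11 (quantile) and 0.01 (length and GC), *Nfkbia* 0.18 (median-of-ratios), *Nfkbib* 0.05 (median-of-ratios) and 0.16 (quantile), and *Nfkbiz* 0.17 (quantile). The causes were not tested. Of the log2 FC values of the members over all comparisons and settings, 1019 kept direction and side of the threshold, 26 lost it, 11 gained it and 14 reversed.

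Replicate numbers gave no sign of pairing the mice, though so few pairs cannot show that pairing was absent. Same-numbered mice had deviations that correlated at -0.06 to 0.06 at 2 weeks and -0.20 to 0.04 at 10 weeks. Those of different numbers correlated at -0.14 to 0.09 and -0.21 to 0.16. With the block, 751 genes (5.55%) passed at 2 weeks in place of 1951, and *Rel* was lost from the pairing fit at an unchanged log2 FC of 2.14. When leaving out a mouse left 2 WT mice at 10 weeks, fewer degrees of freedom remained. Depth limits *Rel* and *Nfkbie* most, with about 13 and 10 reads behind their lowest values.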

Other observations

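Which genes followed each member across the 15 mice was measured as the root mean square distance between log2 profiles centred on their means, over 13937 genes, with no test. The points share libraries, groups and depth, so a small distance is a description only. Nearest to *Nfkbia* were *Olfr1033* (0.25), *Nfkbiz* (0.33), *Bhlhe40* (0.33), *Pmaip1* (0.37) and *Irf1* (0.38), where *Nfkbia* itself varied by 1.29 around its mean. The list of *Nfkbiz* was headed by *Nfkbia* (0.33), *Pde4b* (0.38), *Gem* (0.44), *Olfr1033* (0.44) and *Hbegf* (0.45). For *Tnfaip3*, which varied most (2.03), they were *Tnfaip6* (0.46), *Nfkbiz* (0.61), *Cyr61* (0.61), *Nr4a1* (0.62) and *Atf3* (0.66). *Rel* had no equally close neighbour, with *Arl5b* (0.57), *Rora* (0.64), *Fam110c* (0.66), *Apol8* (0.75) and *Cbl* (0.77).

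The members with smaller rises had other neighbours. For *Nfkbie* these were *Rnf19b* (0.27), *Cish* (0.30), *Mafk* (0.31), *Map3k14* (0.33) and *Elf3* (0.33). For *Nfkb1* they were *Sipa1l2* (0.14), *Fip1l1* (0.15), *Rnf145* (0.15), *Cnnm2* (0.16) and *Map4k4* (0.16), and for *Nfkb2* they were *Fam102a* (0.19), *Emilin2* (0.20), *Fxr2* (0.20), *Stk40* (0.20) and *Pdxk* (0.21). Distances shrink with the member's own variation, which was 1.11 for *Nfkbie*, 0.68 for *Nfkb1* and 0.80 for *Nfkb2*. Among the members themselves, *Nfkb1* and *Nfkb2* lay 0.29 apart and *Nfkbia* and *Nfkbiz* 0.33.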
